A study of Arabidopsis thaliana with 10 samples.

Results

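The plastid-encoded photosynthesis genes of Arabidopsis thaliana were followed across 5 genotypes that differ in the FLU, EX1 and EX2 genes. Members were all probe sets assigned to a gene of the plastid chromosome (locus tags starting ArthCp) whose symbol begins with psa, psb, pet, atp, ndh or rbc. There were 44 of them, among 76 plastid probe sets and 22746 probe sets of genes in all. They comprised 5 genes of photosystem I, 15 of photosystem II, 6 of the cytochrome b6f complex, 6 of the ATP synthase, 11 of the NDH complex, and rbcL, which encodes the large subunit of Rubisco. In 43 cases the probe set had 1 plastid locus, while that of ndhB covered both copies of the gene, which lies in the inverted repeat.

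The thylakoid membrane holds the photosystems, the cytochrome b6f complex and the ATP synthase, and each is built from proteins of the plastid and the nuclear genome. The plastid genes are mostly arranged in operons, are transcribed by plastid and nuclear-encoded RNA polymerases, and owe much of their transcript level to RNA processing and stability. FLU is a nuclear-encoded brake on chlorophyll synthesis in the dark. In flu mutants the precursor protochlorophyllide builds up during darkness and produces singlet oxygen when light returns, and the plastid proteins EXECUTER1 and EXECUTER2 (EX1 and EX2) are needed for the nuclear gene response to it.

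Rosette leaves came from wild type Columbia, from flu (the flu1-1 allele brought from Landsberg erecta into Columbia by 5 backcrosses), and from the lines ex1/flu, ex2/flu and lastly ex1/ex2/flu, which carry the same flu mutation together with a T-DNA insertion in EX1, in EX2 or in both. Each insertion mutant was thus present as 1 line, and ex1/ex2/flu was recovered from an F2 of the cross between the other two. There were 2 biological replicates of every genotype, each a pool of 5 mature plants, and all plants had grown in continuous light until bolting began, spent 8 h in darkness and received 30 min of light before harvest. The arrays therefore hold no dark control and 1 time point, and the comparisons are between genotypes after the same treatment.

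Signals were Affymetrix ATH1 probe set intensities, analysed as log2 values that were comparable between arrays but not between probe sets. All 44 members lay above the filter level (the 40th percentile of an array) on at least 2 of the 10 arrays, so none was left out. The ndhF probe set was below that level on 4 arrays, both flu arrays included, and ndhB on 1. No flu difference is given for ndhF, which enters counts and medians as measured. A gene was called changed at a Benjamini-Hochberg adjusted p under 0.05 in limma over the 14435 probe sets tested. Errors are limma's moderated standard errors, with n = 2 arrays a genotype. With 2 arrays a side, 0.333 is the smallest two-sided p that an exact permutation test of single genes could reach.

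The 2 arrays of a genotype correlated at 0.973 to 0.985 over all probe sets tested. EX1 had a log2 signal of 7.95 and 7.88 in ex1/flu and of 7.53 and 7.81 in ex1/ex2/flu, against 9.13 to 9.59 on the other 6 arrays, as the labels imply. No probe set was assigned to FLU or EX2 in the annotation used, so their transcripts could not be checked. Rubisco activase (RCA), the leaf marker with a probe set, had a log2 signal of 13.90 to 14.36 on every array, and FMA of guard cells 7.79 to 8.01. Of 5 root markers 1 passed the filter, at 6.33 to 7.28, near the filter level of 6.42 to 6.53, and no flower or vasculature marker was measured. In leaf RNA, fewer chloroplasts or cells of a kind and less transcript per chloroplast cannot be told apart. Plastid mRNAs carry no stable poly(A) tail and the labelling reaction was primed with oligo(dT), so the fraction of each transcript that was copied is unknown.

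Across the 5 genotypes, the F test called 2 of 44 members (4.55%), near the 5.29% of all probe sets tested. They were psbM (adjusted p = 0.0224, limma) and atpF (adjusted p = 0.0249, limma). Over 19 alternatives the psbM call was kept in 11 and the atpF call in 13. At an unadjusted p under 0.05 the F test count was 13 of 44 members (29.5%, with 17.4% of all probe sets). The lowest of the 5 genotype means belonged to wild type for 15 members (34.1%) and to flu for 14 (31.8%), beside 18.9% and 26.3% of all probe sets tested. The highest belonged to ex1/ex2/flu for 20 (45.5%), beside 23.7% of all. The heat map shows this array by array.

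**Figure D1:**
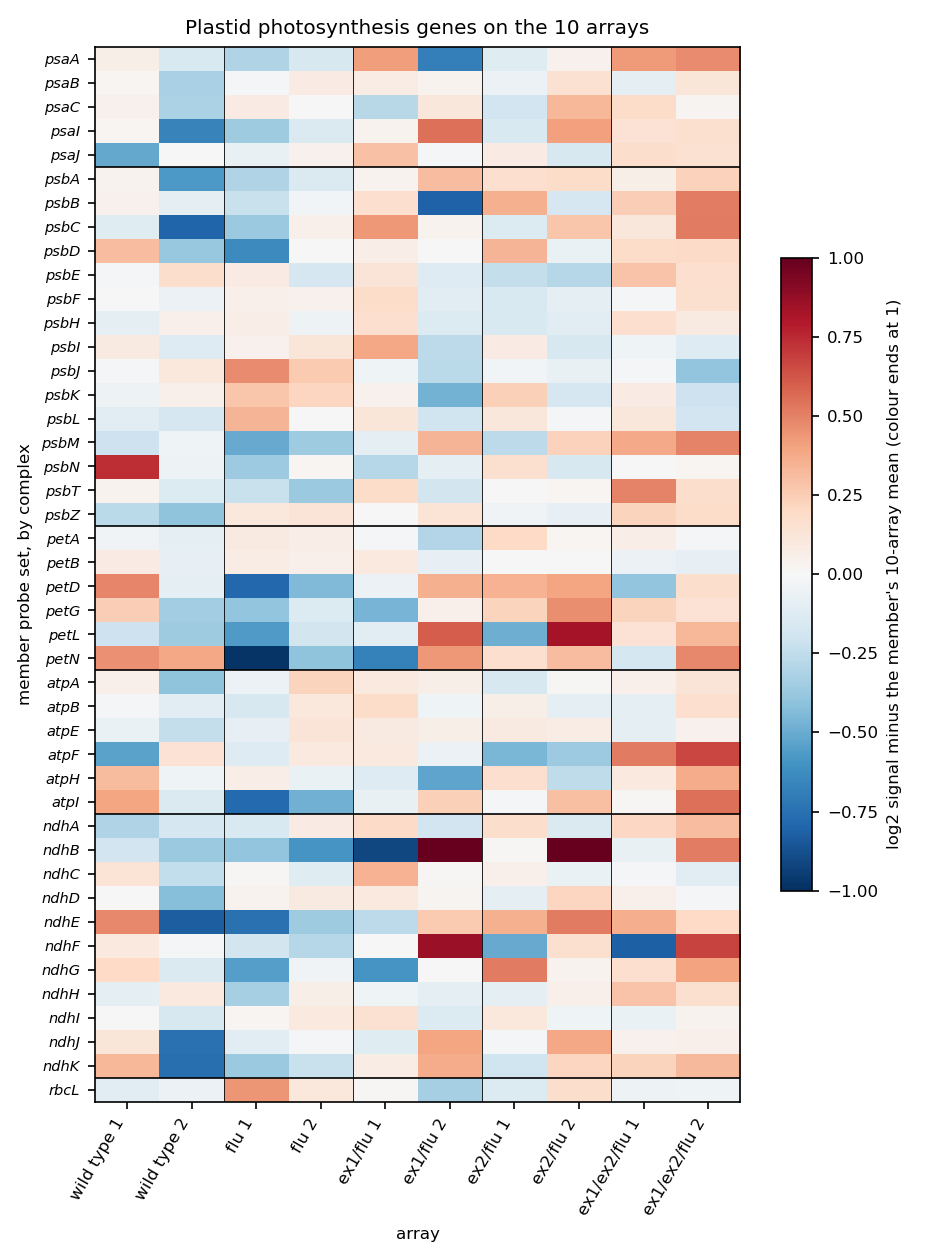
Log2 signal of the 44 members (rows, grouped by complex) on the 10 arrays (columns), as the deviation from each member's mean over the arrays, with the colour scale ending at 1 log2 unit either way. The ex1/ex2/flu columns hold the most members above their own mean, 30 and 35 of 44, and wild type 2 the fewest, 8 of 44.

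In flu against wild type, which asks how the mutant that accumulates the precursor differs after the same dark and light treatment, no member was called (0 of 44, limma), while 3.84% of all probe sets tested were, with 2.83% higher and 1.02% lower in flu. At an unadjusted p under 0.05 there were 6 (13.6%), near the 15.2% of all probe sets. The median member difference was 0.04 on the log2 scale, beside -0.04 for all probe sets, and turned to -0.07 when arrays were centred on the other plastid-encoded genes. Mean values lay above wild type for 25 members and below for 19, beside 6465 above and 7970 below among all 14435 probe sets. Both flu arrays exceeded both wild type arrays for 10 members (22.7%, background 21.2%) and were below both for 8 (18.2%, background 27.1%). For 37 of 44 members (84.1%, beside 85.9% of all probe sets) the 95% confidence interval of the difference stayed within 2-fold either way.

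Among these 44, psbZ and petN came nearest to the threshold. psbZ encodes a small core subunit of photosystem II that helps hold its antenna. Its log2 signal was 11.78 and 11.65 in wild type and 12.16 and 12.18 in flu. It was 12.05 and 12.19 in ex1/flu, 12.02 and 11.97 in ex2/flu, and 12.28 and 12.24 in ex1/ex2/flu. Wild type was thus lowest, with no overlap with any other genotype. The flu difference was 0.45 ± 0.12 (adjusted p = 0.0503, limma), just outside the threshold, and was called in 6 of 20 alternatives (0.0267 to 0.293), without ex1/flu 1 (0.0296) or ex1/flu 2 (0.0295) among them. In ex1/ex2/flu psbZ rose over wild type by 0.54 ± 0.12, or 1.45-fold (adjusted p = 0.0403, limma).

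petN, a small subunit of the cytochrome b6f complex, had a log2 signal of 8.92 and 8.86 in wild type and of 7.48 and 8.06 in flu. In ex1/flu it was 7.79 and 8.90, in ex2/flu 8.63 and 8.78, and in ex1/ex2/flu 8.29 and 8.95. The flu arrays were below both wild type arrays, and the ex1/flu pair spread over more than the whole gap between them. With -1.12 ± 0.30 (adjusted p = 0.0544, limma), petN had the largest flu difference of the 44 in size, and it was not called. It was called in 9 of 20 alternatives (adjusted p 0.00632 to 0.418, limma), among them the fits without ex1/flu 1 (0.00632), ex1/flu 2 (0.00672), ex2/flu 1 (0.0492), ex1/ex2/flu 1 (0.0482) or ex1/ex2/flu 2 (0.049). Next in size were petD at -0.81 ± 0.26 (adjusted p = 0.112, limma) and atpI at -0.75 ± 0.23 (adjusted p = 0.0945, limma). rbcL, whose protein fixes carbon dioxide, was 9.21 and 9.26 in wild type and 9.75 and 9.42 in flu. Its difference of 0.35 ± 0.18 was not called either (adjusted p = 0.382, limma).

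No complex had a member called in flu against wild type (limma). The median difference from wild type was 0.18 for the 5 photosystem I genes, which ran from -0.18 for psaA to 0.24 for psaJ. It was 0.05 for the 15 photosystem II genes, 0.11 for the 6 ATP synthase genes and -0.08 for the 11 NDH genes. For the 6 cytochrome b6f genes it was -0.15, with 4 below wild type and 2 above. Within photosystem II the lowest value was -0.51, for psbN, whose product is an assembly factor and not a subunit (adjusted p = 0.299, limma). Its wild type arrays, 9.55 and 8.76, spread wider than the flu arrays, 8.45 and 8.83, and the groups overlapped.

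**Figure D2:**
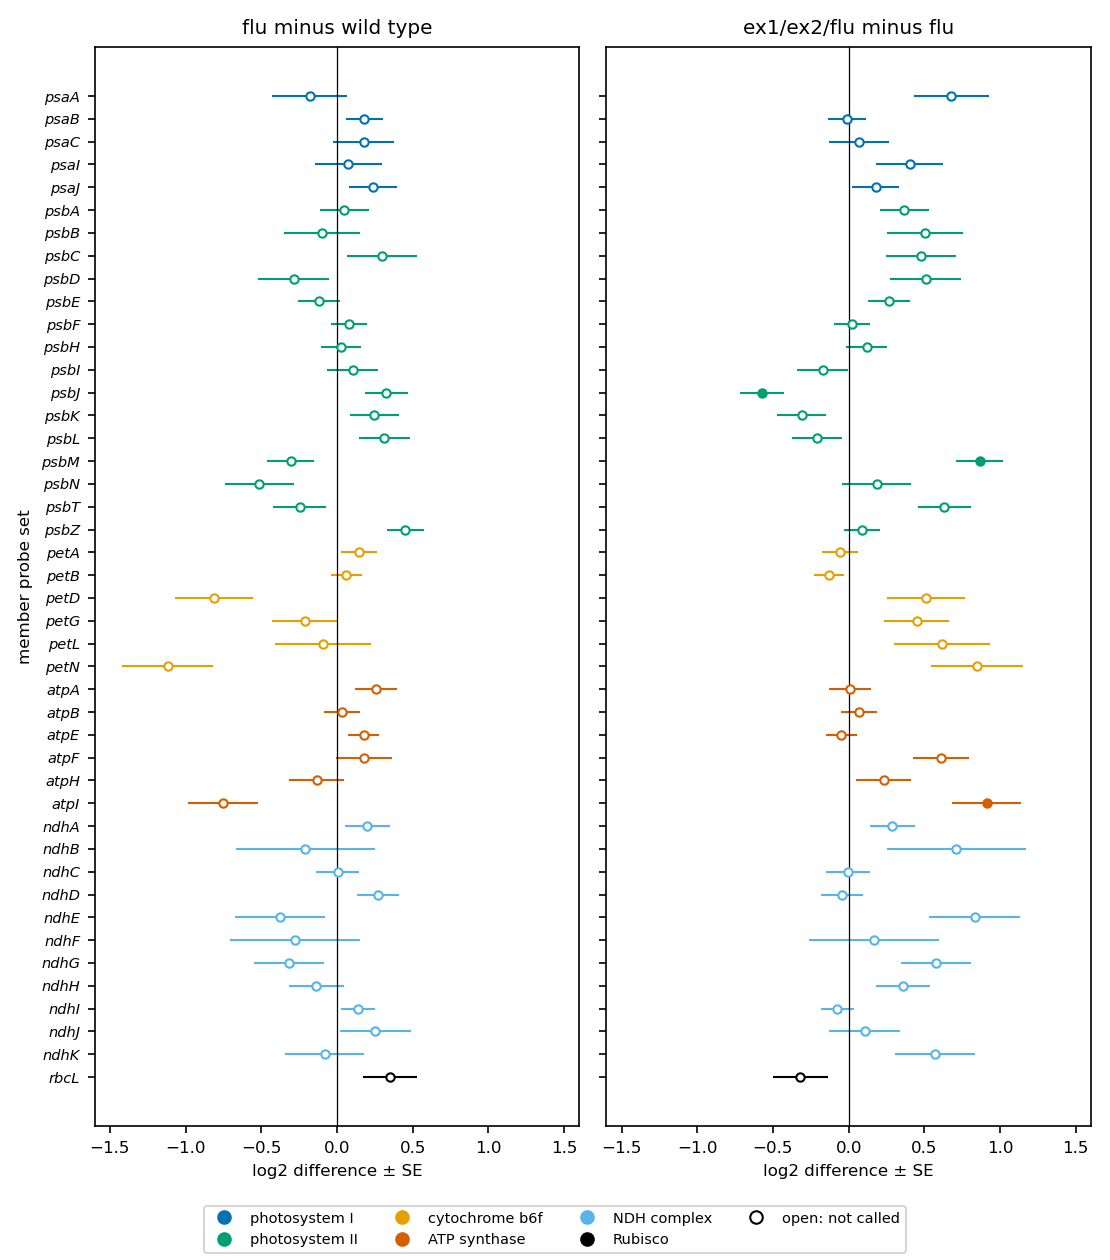
Log2 difference with its standard error for each member in flu against wild type (left) and ex1/ex2/flu against flu (right), coloured by complex, with filled points for called members. All points on the left are open, and on the right psbM, psbJ and atpI are filled; ndhF, which lay below the filter level on both flu arrays, is drawn as measured.

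The 3 EXECUTER lines were then set against flu to ask what the loss of EX1, EX2 or both changed in the mutant background. These comparisons share the flu arrays, and those against wild type share the wild type arrays, so they are not independent. No member was called in ex1/flu against flu (0 of 44, limma), against a background of 1.36%, and 8 (18.2%) had an unadjusted p under 0.05, beside 13.0% of all probe sets. None was called in ex2/flu either (0 of 44, limma), against 1.04%, with 11 of 44 at the unadjusted threshold, beside 14.1% of all. In ex1/ex2/flu 3 of 44 members were called, or 6.82%, against a background of 3.0%. Of these 2 were higher and 1 lower, where 0.485% of all probe sets were called higher and 2.51% lower. At an unadjusted p under 0.05 there were 12 (27.3%), beside 15.9% of all probe sets.

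The 2 higher members belonged to different complexes. psbM encodes a small photosystem II subunit located where the monomers of the dimer meet. Its log2 signal was 13.74 and 13.88 in flu, and 14.61 and 14.74 in ex1/ex2/flu. Wild type gave 14.03 and 14.20, ex1/flu 14.15 and 14.58, and ex2/flu 13.97 and 14.47. The flu arrays were the lowest and the ex1/ex2/flu arrays the highest of the 10. Its ex1/ex2/flu intensities, 25090 and 27310, were near the highest on those arrays, 2.84e+04 and 3.39e+04. Whether differences are measured in full at such signals was not tested. psbM rose by 0.87 ± 0.15, or 1.82-fold, in ex1/ex2/flu over flu (adjusted p = 0.00479, limma), with a 95% confidence interval of 0.536 to 1.195. The differences in ex1/flu (0.55 ± 0.15, adjusted p = 0.106, limma) and ex2/flu (0.41 ± 0.15, adjusted p = 0.24, limma) were not called.

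atpI encodes subunit a of the membrane part of the ATP synthase, which forms the proton channel. It gave 7.72 and 8.02 in flu, 8.51 and 9.05 in ex1/ex2/flu, and 8.89 and 8.35 in wild type. In ex1/flu the values were 8.43 and 8.73, and in ex2/flu 8.48 and 8.80. Here flu alone was low, and the other 4 genotypes overlapped. atpI rose by 0.91 ± 0.23, or 1.88-fold, in ex1/ex2/flu over flu (adjusted p = 0.0436, limma), while the difference from wild type was 0.16 ± 0.23. In ex1/flu and ex2/flu the differences from flu were 0.71 ± 0.23 and 0.77 ± 0.23 (adjusted p = 0.174 and 0.132, limma). These tests set each line against flu and do not compare the 3 lines with each other.

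psbJ, a small photosystem II subunit next to the cytochrome that psbE and psbF encode, went the other way. It read 12.89 and 12.68 in flu and 12.41 and 12.02 in ex1/ex2/flu, with 12.40 and 12.52 in wild type, 12.38 and 12.15 in ex1/flu and 12.39 and 12.35 in ex2/flu. Only the flu arrays stood above the rest. psbJ fell by 0.57 ± 0.14 in ex1/ex2/flu, to 0.672 of the flu level (adjusted p = 0.0436, limma). In ex1/flu the difference was -0.52 ± 0.14 (adjusted p = 0.101, limma).

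**Figure D3:**
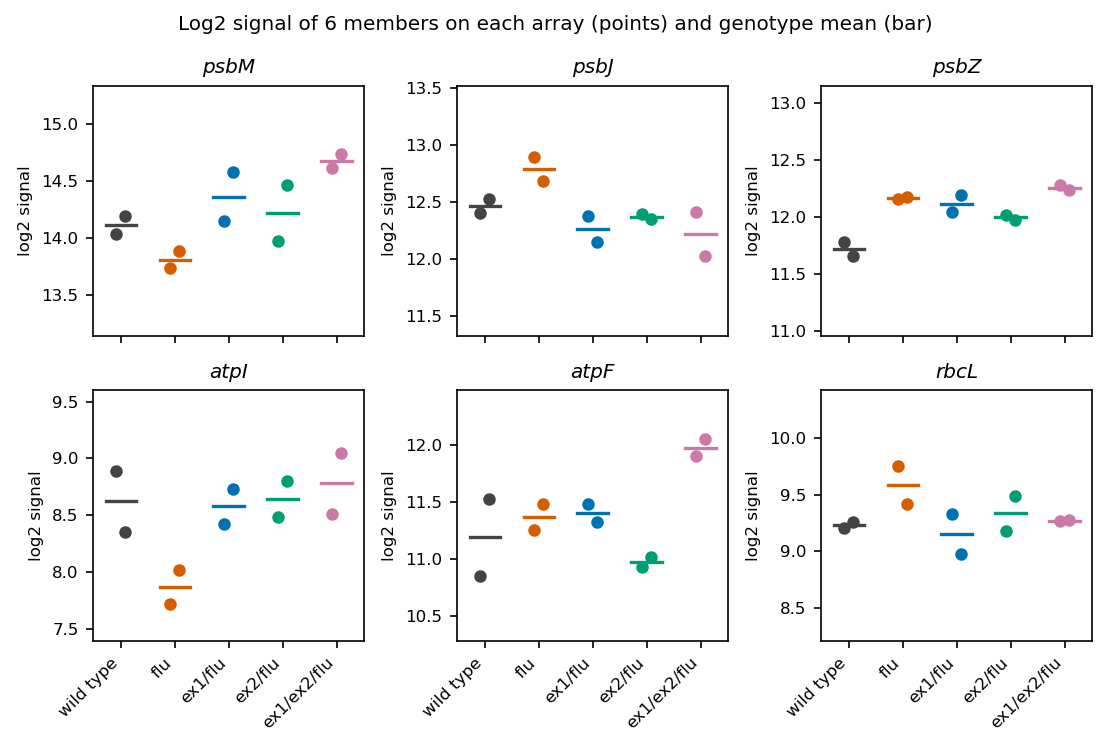
Log2 signal of psbM, psbJ, psbZ, atpI, atpF and rbcL on each array (points) with the genotype mean (bar), on axes of equal length. psbM and atpI are lowest in flu, psbJ is highest there, psbZ is lowest in wild type, and atpF is highest in ex1/ex2/flu.

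These 3 calls rest on few arrays. Over 20 alternatives the psbM call was kept in 16 (adjusted p 0.000446 to 0.0949, limma), atpI in 13 (0.0053 to 0.629) and psbJ in 10 (0.0161 to 0.659), and all 3 kept their sign in every one. psbM was not called without flu 1 (adjusted p = 0.0666, limma) or ex1/ex2/flu 2 (0.0949). atpI was lost without flu 1 (0.32), flu 2 (0.0986) or ex1/ex2/flu 2 (0.629). psbJ was lost without either wild type array (0.0659 and 0.0654), flu 1 (0.341), flu 2 (0.095) or ex1/ex2/flu 2 (0.659). Without the filter or the intensity trend psbM was not called (0.0584 and 0.0713), and atpI and psbJ were lost there too. Both were also lost with quantile normalization (0.0541 and 0.0527), and with a block for the spike-in level split at its largest gap (0.123 for both). At that split only flu 1 and ex1/flu 1 were in the high group. The second largest gap was nearly as wide, 0.157 beside 0.163 on the log2 scale, so the levels had no clear division. Centring arrays on the other plastid-encoded genes lost the psbJ call as well (adjusted p = 0.075, limma).

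Below the threshold, the members of ex1/ex2/flu lay mostly above flu. The means were above flu for 32 of 44 members, and for 8157 of all 14435 probe sets tested. The member median was 0.21, beside 0.04 for all probe sets tested and 0.10 for the other 32 plastid-encoded genes. For 9 nuclear-encoded photosynthesis genes, which were RCA and subunits of the same complexes, the median was -0.07. Both ex1/ex2/flu arrays exceeded both flu arrays for 26 members (59.1%, background 30.2%) and were below them for 6 (13.6%, background 22.2%). The corresponding medians were 0.05 in ex1/flu, which turned to -0.05 when arrays were centred on the other plastid-encoded genes, and 0.06 in ex2/flu. Centring in that way left 0.13 for ex1/ex2/flu.

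By complex, the median difference of ex1/ex2/flu from flu was 0.18 for photosystem I, 0.19 for photosystem II, 0.48 for the cytochrome b6f complex, 0.15 for the ATP synthase and 0.29 for the NDH complex. In photosystem I, psaA, a reaction centre protein, had the largest value, 0.68 ± 0.25 (adjusted p = 0.18, limma), and psaB, its partner and cotranscribed neighbour, had -0.01. psaI, a small membrane subunit, was 11.83 and 12.03 in flu and 12.33 and 12.34 in ex1/ex2/flu, but wild type itself ran from 11.51 to 12.20. psaC, which passes electrons on towards ferredoxin, was 9.77 and 9.69 in flu and 9.88 and 9.72 in ex1/ex2/flu, and ranged from 9.38 to 10.03 over all arrays. Neither psaI nor psaC was called in any comparison.

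In photosystem II the largest uncalled value was that of psbT, a small subunit beside psbM, at 0.63 ± 0.17 (adjusted p = 0.0678, limma). psbA, which encodes the D1 protein that is replaced during light damage, was 13.35 and 12.74 in wild type and 13.01 and 13.17 in flu. It was 13.35 and 13.62 in ex1/flu, 13.48 and 13.49 in ex2/flu and 13.37 and 13.54 in ex1/ex2/flu. All 6 EXECUTER arrays were above both flu arrays, but wild type 1 lay level with the lowest of them. Differences from flu were 0.40 ± 0.16, 0.40 ± 0.16 and 0.37 ± 0.16 in the 3 lines, and none was called (adjusted p = 0.298, 0.28 and 0.279, limma). psbD encodes D2, the other reaction centre protein, and gave 9.93 and 9.24 in wild type, 8.99 and 9.62 in flu, 9.69 and 9.62 in ex1/flu, 9.97 and 9.55 in ex2/flu, and 9.80 and 9.82 in ex1/ex2/flu. The flu arrays reached from the lowest value up into the range of the other lines. Its cotranscribed neighbour psbC, for an inner antenna protein, gave 11.06 and 10.38 in wild type, 10.80 and 11.23 in flu, and 11.29 and 11.69 in ex1/ex2/flu. Here wild type 2 was the lowest of the 10 arrays, and the difference of ex1/ex2/flu from wild type was 0.78 (adjusted p = 0.157, limma). psbI, a small subunit next to D1, varied from 12.57 to 13.22, and both extremes came from the 2 ex1/flu arrays.

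The cytochrome b6f genes split by size of difference. petB, the cytochrome b6 subunit, was among the steadiest members, at 14.02 to 14.21 over all 10 arrays, and its difference of ex1/ex2/flu from flu was -0.13 ± 0.10. petD, which encodes subunit IV and follows petB in the same transcription unit, gave 7.96 and 7.38 in wild type, 6.69 and 7.03 in flu, 7.41 and 7.83 in ex1/flu, 7.82 and 7.86 in ex2/flu, and 7.08 and 7.65 in ex1/ex2/flu. The flu arrays were again lowest and ex2/flu highest on average. The flu values of petD lay near the filter levels of those arrays, 6.45 and 6.48. The ex2/flu difference from flu was 0.99 ± 0.26, or 1.98-fold (adjusted p = 0.0872, limma), the nearest to a call in that comparison. In ex1/ex2/flu over flu the value was -0.06 for petA (cytochrome f), and 0.45, 0.62 and 0.85 for the small subunits petG, petL and petN, none of them called.

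Of the ATP synthase, atpB, the catalytic beta subunit, ranged only from 14.60 to 14.95, near the highest signals on the arrays. Whether differences are still measured in full at that level, which psbM reached in ex1/ex2/flu, was not tested. atpF, subunit b of the stalk that joins the membrane part to the catalytic head, was 10.85 and 11.53 in wild type, 11.25 and 11.48 in flu, 11.48 and 11.33 in ex1/flu, 10.93 and 11.02 in ex2/flu, and 11.90 and 12.05 in ex1/ex2/flu. Both ex1/ex2/flu arrays stood above the other 8. Against flu the difference was 0.61 ± 0.18 (adjusted p = 0.0971, limma) and against wild type 0.79 ± 0.18 (adjusted p = 0.052, limma), neither called.

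The NDH complex carries electrons around photosystem I. Its gene ndhE, for a small membrane subunit, gave 11.26 and 9.95 in wild type, 10.03 and 10.42 in flu, 10.52 and 11.03 in ex1/flu, 11.13 and 11.29 in ex2/flu, and 11.14 and 10.98 in ex1/ex2/flu. The wild type arrays alone spanned nearly the whole range. Its differences from flu, 0.98 ± 0.30 for ex2/flu and 0.83 ± 0.30 for ex1/ex2/flu, were not called (adjusted p = 0.143 and 0.171, limma). Of the 11 NDH genes 8 had means above flu in ex1/ex2/flu, 9 in ex1/flu and 10 in ex2/flu, all uncalled. Of all 14435 probe sets, 8157, 7369 and 7062 had means above flu, in the same order. ndhI, a subunit of the arm that takes electrons from ferredoxin, stayed between 14.04 and 14.35. For rbcL all 3 lines lay below flu on average, at 9.33 and 8.98, 9.18 and 9.49, and 9.26 and 9.27, and the ex1/ex2/flu difference was -0.32 ± 0.18 (adjusted p = 0.424, limma).

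Values of neighbours in a transcription unit were close in some units and apart in others, and differences between neighbours were not tested. They were 0.07 and -0.05 for atpB and atpE, and -0.31 and -0.17 for psbK and psbI, in ex1/ex2/flu against flu. In the unit of rps2, atpI, atpH, atpF and atpA, the values were 0.45 for rps2, 0.91 for atpI, 0.23 for atpH, 0.61 for atpF and 0.01 for atpA. Along psbE, psbF, psbL and psbJ they were 0.27, 0.02, -0.21 and -0.57. In the psbB unit they were 0.51 for psbB, 0.63 for psbT, 0.12 for psbH, -0.13 for petB and 0.51 for petD. Which part of a precursor or processed RNA each probe set reads was not tested.

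The size of the difference varied with the signal of the probe set. The 22 members with a mean log2 signal up to 11.44 had a median difference of 0.51 in ex1/ex2/flu over flu, and the 22 above it had 0.02. All probe sets in the same 2 ranges had 0.04 and 0.03. The median size of the difference, regardless of sign, was 0.51 and 0.125 for members and 0.19 and 0.13 for all probe sets. In flu against wild type the member medians were -0.19 and 0.12, beside -0.04 and 0.01 for all. The same split moved with the replicate spread, whose median SD within genotypes was 0.32 among the dimmer members and 0.17 among the brighter ones. For all probe sets in these ranges the SD was 0.19 and 0.13. This division by signal was chosen after the values were seen, and the part of signal level in the differences was not tested.

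**Figure D4:**
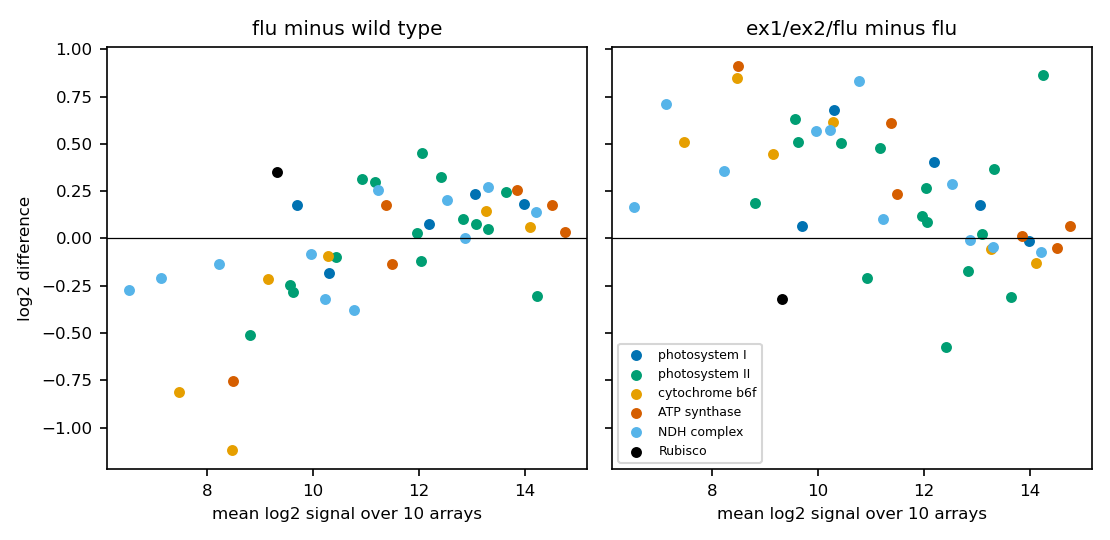
Log2 difference of each member against its mean log2 signal over the 10 arrays, for flu against wild type (left) and ex1/ex2/flu against flu (right), coloured by complex. On the right, members at a signal up to 11.44 mostly lie above 0, with a median of 0.51, and brighter ones centre near 0, with a median of 0.02.

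Averaging over the 4 flu lines separated the effect of losing EX1 from that of losing EX2. With EX1 lost, 2 of 44 members (4.55%) were called and both were higher, against a background of 3.33%, with 0.374% higher and 2.95% lower. They were psbM at 0.51 ± 0.11, or 1.42-fold (adjusted p = 0.0141, limma), and atpF at 0.52 ± 0.13, or 1.43-fold (adjusted p = 0.0392, limma). For psbM the difference was 0.55 with EX2 present (ex1/flu against flu) and 0.46 with EX2 absent (ex1/ex2/flu against ex2/flu). For atpF it was 0.04 with EX2 present and 1.005 with EX2 absent, so the atpF average joins unlike values, although the interaction was not called (0.97 ± 0.26, adjusted p = 0.154, limma). With EX2 lost, no member was called (0 of 44, limma, background 0.104%, with 10, or 22.7%, at an unadjusted p under 0.05, beside 8.32% of all probe sets), and the lowest adjusted p was 0.246. The interaction of ex1 and ex2 called no member (0 of 44, limma, background 0.201%, with 4, or 9.09%, unadjusted, beside 11.6%). Its largest values were -1.24 for petD and that of atpF. Of 44 intervals 29 (65.9%, beside 65.0% of all probe sets) stayed within 2-fold either way. Differences of that size were not excluded for the other 15.

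The EX1 calls were also sensitive to single arrays. psbM kept its call in 14 of 20 alternatives (adjusted p 0.00116 to 0.138, limma) and lost it without flu 1 (0.0761), ex2/flu 1 (0.0582) or ex1/ex2/flu 2 (0.0884). atpF kept it in 10 of 20 (0.00831 to 0.21) and lost it without flu 1 (0.189), flu 2 (0.0659), ex1/flu 1 (0.1), ex2/flu 1 (0.0971), ex2/flu 2 (0.0699), ex1/ex2/flu 1 (0.0679) or ex1/ex2/flu 2 (0.21).

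Set against wild type, ex1/flu had no member called (0 of 44, limma, background 1.58%, with 18.2% unadjusted, beside 11.2% of all probe sets), and neither had ex2/flu (0 of 44, limma, background 4.77%, with 13.6% unadjusted, beside 16.5%). In ex1/ex2/flu 1 of 44 was called, psbZ, against a background of 1.25%, or 0.388% higher, with 9 (20.5%) at an unadjusted p under 0.05, beside 10.1%. The psbZ call was kept in 11 of 20 alternatives (adjusted p 0.0224 to 0.327, limma). It was lost without wild type 1 (0.153), wild type 2 (0.215), flu 1 (0.0713), flu 2 (0.0712), ex1/ex2/flu 1 (0.246) or ex1/ex2/flu 2 (0.266). Member medians were 0.09 for ex1/flu, 0.12 for ex2/flu and 0.22 for the line lacking both, and became -0.13, -0.04 and 0.03 after centring on the other plastid-encoded genes. In ex1/ex2/flu 18 members (40.9%, background 21.9%) were above wild type on both arrays and 0 were below on both (background 20.9%). Means were above wild type for 35 of 44 members and for 7543 of all 14435 probe sets. The other plastid-encoded genes were much like the members, with 28 of 32 above and a median of 0.20. The member median of 0.22 ranged from 0.06 without wild type 2 to 0.38 without wild type 1.

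Other plastid genes and the nuclear partners give the setting. Of 32 other plastid-encoded probe sets, 1 was called in each line against flu, and it was rpl20, a ribosomal protein gene, at 0.99 ± 0.20 without EX1, 0.92 ± 0.20 without EX2 and 1.04 ± 0.20 without both (adjusted p = 0.0167, 0.0399 and 0.00672, limma). In flu against wild type rps19 was called at 0.49 ± 0.11 (adjusted p = 0.0237, limma). It was called against wild type in ex1/flu (0.61) and ex2/flu (0.46) as well, as were rpl16 in ex2/flu (0.80) and rps2 in ex1/ex2/flu (0.74). The 9 nuclear photosynthesis genes tested, RCA among them, of 43 listed, had 0 calls in every comparison (limma, with at most 2 at an unadjusted p under 0.05). On each array the median deviation of the members was -0.15 to 0.16, and for the other plastid genes it was -0.24 to 0.13, with wild type 2 lowest for both.

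**Figure D5:**
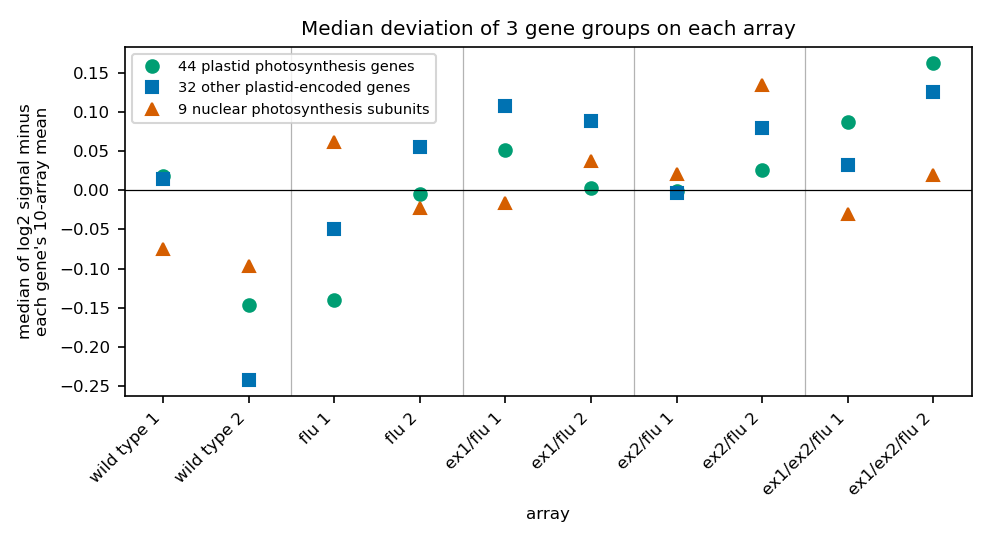
Median deviation of log2 signal from each gene's mean over the arrays, for the 44 members (circles), 32 other plastid-encoded genes (squares) and 9 nuclear photosynthesis genes (triangles) on each array. The 9 nuclear genes are RCA and subunits of the complexes. Wild type 2 is lowest for the members, at -0.15, and ex1/ex2/flu 2 highest, at 0.16.

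The 2 ex1/ex2/flu arrays had member medians of 0.09 and 0.16, and the flu arrays -0.14 and -0.01, so flu 1 and ex1/ex2/flu 2 lay farthest apart. Mean log2 signals of the spiked control transcripts were 8.50 and 7.98 on the flu arrays and 8.25 and 8.29 on the ex1/ex2/flu arrays. For the control genes, 3' over 5' signal was 2.63 and 2.73 in flu and 2.68 and 2.53 in ex1/ex2/flu for actin, and 0.917 and 0.953 against 0.985 and 1.17 for GAPDH. The spike-in level served as a block in alternative fits, which changed some calls. The part of the 3' over 5' ratios in the member differences was not tested.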

How the data were processed

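The values were the linear signal intensity of each ATH1 probe set, deposited by the authors and made with GCOS 1.2 and MAS5 per the submitters' processing notes. Between the 2nd and 98th percentile the deposited signals averaged 500.046 to 500.051 on every array, so all arrays had been scaled to 1 level. Genes were named through the array's annotation table and a RefSeq table, in which all 44 member symbols were found. Control probe sets (64) were left out. Of 22746 others, 14435 reached the 40th percentile on at least 2 arrays. Intensities were log2-transformed with no offset, and limma 3.58.1 in R 4.3.3 was run on all 10 arrays together, each genotype having its own mean, with eBayes with an intensity trend (5 residual and 10.0 prior degrees of freedom). The main fit was tested on simulated data. P-values were adjusted over all 14435. The number of arrays limits the precision.

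Members and gene lists were chosen with earlier results of these data known. Genes named were those called in any comparison and, in each complex, those with the lowest and highest F test p; petN, psbA, psaA, psbT and others were named after their values were seen. A list of plastid RNA processing genes had 1 tested member and 0 calls (limma, 0 at an unadjusted p under 0.05), and none of the listed plastid transcription genes was tested. Alternatives changed the filter, offset, trend, normalization, blocks and arrays used. Same-numbered replicates were checked for pairing by the correlation of their deviations from the genotype means, which ran from -0.0862 to 0.431 over 10 pairs of genotypes, with 1 over 0.1, so the numbers were not treated as pairs. Plots used Python 3.11.15 with matplotlib 3.10.9.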

Additional observations from a re-analysis of the deposited data

How the results depend on the processing

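Counts of called members moved as follows. For flu against wild type 0 became 1 with quantile normalization, 1 with a filter at the 60th percentile, 2 with only the genotypes compared, and 0 to 2 without 1 array. For ex2/flu against flu 0 became 3 with only the genotypes compared (0 to 1 without 1 array), and for ex1/flu against flu the range without 1 array was 0 to 2. The 3 calls in ex1/ex2/flu against flu became 1 with quantile normalization, 0 without a filter or without the intensity trend, 9 with only the genotypes compared, and 0 to 6 without 1 array. The 1 call of ex1/ex2/flu against wild type became 0 without a filter or trend, 2 with an offset of 32, 3 with only the genotypes compared, and 0 to 3 without 1 array. Without 1 array the count was 0 to 1 for ex1/flu and 0 to 3 for ex2/flu against wild type, 0 to 3 for loss of EX1, 0 to 2 for loss of EX2, and 0 to 7 for the F test. Loss of EX1 and the F test had 0 calls without a filter or trend.

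With the replicate number as a block, calls were 1 for flu against wild type (petN, adjusted p = 0.0155, limma), 1 for ex1/flu against flu and 3 for ex1/ex2/flu against wild type, and no other count moved by over 1.5 times. Of alternatives chosen after seeing the data, a block for the spike-in level split at its second largest gap gave 3 calls in flu against wild type and in each of ex1/flu and ex2/flu against flu. It gave 9 in ex1/ex2/flu against flu, 1, 1 and 3 in the lines against wild type, 5 for EX1, 2 for EX2 and 10 for the F test. Centring arrays on the other plastid-encoded genes gave 3 calls in flu against wild type and 0 for ex1/ex2/flu against wild type, EX1 and the F test. It moved the median against wild type to -0.0746 for flu, -0.13 for ex1/flu, -0.0353 for ex2/flu and 0.0298 for ex1/ex2/flu, and the median against flu to -0.0477 for ex1/flu and 0.13 for ex1/ex2/flu. Without 1 array the medians ran from -0.041 to 0.121 (flu), 0.0218 to 0.191 (ex1/flu), 0.0302 to 0.198 (ex2/flu) and 0.0563 to 0.38 (ex1/ex2/flu) against wild type, and from -0.0268 to 0.168, 0.0321 to 0.154 and 0.175 to 0.252 for the 3 EXECUTER lines in the same order against flu. The causes were not tested. With 2 arrays a genotype, small differences were not detectable. The ndhF and ndhB probe sets, near the filter level, had the largest standard errors of the members in pairwise comparisons, 0.43 and 0.46. petL followed at 0.32, with a signal well above that level. On the flu arrays petD also lay near the filter level.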
